A study of Mus musculus with 16 samples.

Results

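The H3K27ac landscapes of mouse medulloblastomas of 2 genotypes were compared on chromosomes 1 to 19. All H3K27ac regions that the authors called on these chromosomes were taken, 21211 from SmoM2 tumours and 28987 from DKO tumours. These 50198 regions belong to the 209255 regions and peaks in the 6 lists of the series, which also profiled Gli2 and H3K36me3 by chromatin immunoprecipitation and sequencing (ChIP-seq). SmoM2 tumours carried the label SmoM2 overexpression, and DKO tumours the label Sufu;Spop double knockout. Both were medulloblastomas at postnatal day 13. The sources used here do not say which promoter or Cre line was behind either genotype, nor whether animals were pooled. Each genotype had 2 H3K27ac libraries but 1 peak list for both, so no difference between genotypes has a replicate check and no p-value is given. Read depth is unknown. Positions are in mouse build mm9, and no gene annotation of that build was used, so loci are named by position and the tumours could not be checked against marker genes.

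H3K27ac is acetylation of lysine on the tail of histone H3. It is laid down by the acetyltransferases CBP and p300 at active promoters and enhancers, and broad acetylated stretches are typical of genes that define a cell's identity. SmoM2 is a constitutively active form of Smoothened, the membrane protein that switches on Hedgehog signalling. Sufu holds Gli transcription factors in check and Spop is the adaptor through which a Cul3 ubiquitin ligase marks them for degradation, so both genotypes act on the pathway that drives growth of cerebellar granule cell progenitors, the cells of origin of Hedgehog medulloblastoma.

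The acetylated sequence of the DKO list was longer, through wider regions and through additional ones in nearly equal measure. DKO regions covered 24.9 Mb and SmoM2 regions 18.7 Mb, a ratio of 1.33. Both lists covered the same 14.2 Mb, which was 75.8% of SmoM2 and 56.9% of DKO bases. The DKO list was longer by a net 6.23 Mb. Flanks of regions that touched a region of the other list gave 3.12 Mb (50.1%) of this, 5.86 Mb in DKO minus 2.74 Mb in SmoM2. The other 3.11 Mb (49.9%) came from regions that touched none, 4.89 Mb in DKO minus 1.78 Mb in SmoM2. Narrow regions accounted for this second part, since the 13688 DKO regions without a SmoM2 counterpart had a median width of 246 bp and the 15299 with one had 910.0 bp. In the SmoM2 list the 5599 regions without a counterpart had a median width of 215 bp and the 15612 others 725 bp.

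Among matched regions, the DKO region was usually the wider, by a smaller factor where regions were wide. In 12990 cases 1 SmoM2 region met exactly 1 DKO region, and the DKO region was the wider in 66.4% of these pairs (Wilson 95% interval 65.5–67.2%, which covers counting error only). The median width ratio of DKO to SmoM2 was 1.24 for pairs with a mean width under 0.5 kb, 1.27 at 0.5 to 1 kb, 1.16 at 1 to 2 kb, 1.10 at 2 to 5 kb and 1.06 at 5 kb or more. The share of pairs with a wider DKO region was 60.9% in the narrowest of these classes and 77.0% in the widest. The SmoM2 list had 247 regions of 5 kb or more, which held 11.1% of its bases, and the DKO list had 357, which held 12.8%. The widest region was 39.9 kb in the SmoM2 and 41.8 kb in the DKO list. A further 834 DKO regions each spanned 2 or more SmoM2 regions, and 642 SmoM2 regions each spanned 2 or more DKO regions.

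To find loci that depart from the list-wide ratio, covered bases were summed in 100 kb windows and divided by the total of their own list. The scaled ratio is the DKO share over the SmoM2 share, so a window at the list-wide ratio has a scaled ratio of 1. Of 11527 windows with any H3K27ac, 2368 held at least 5 kb in both lists together, and these held 68.7% of SmoM2 and 66.0% of DKO bases. Most of them followed the list-wide ratio. The median scaled ratio was 0.953, the middle 50% of windows lay between 0.747 and 1.23, and 88.7% were within 2-fold. A scaled ratio of at least 2 was reached by 146 windows (6.17%), called here windows towards DKO. A scaled ratio of at most 0.5 was reached by 121 windows (5.11%), called windows towards SmoM2. With no scaling the same counts were 337 and 46. Departures of at least 3-fold were found in 54 windows towards DKO and 31 towards SmoM2, and of at least 4-fold in 28 and 14. The minimum of 5 kb counts unscaled bases, which admits windows rich in DKO bases more readily. With a scaled minimum, added after seeing the data, the 2-fold counts were 130 and 131. Counts at 3-fold and 4-fold are not given for it.

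**Figure D1:**
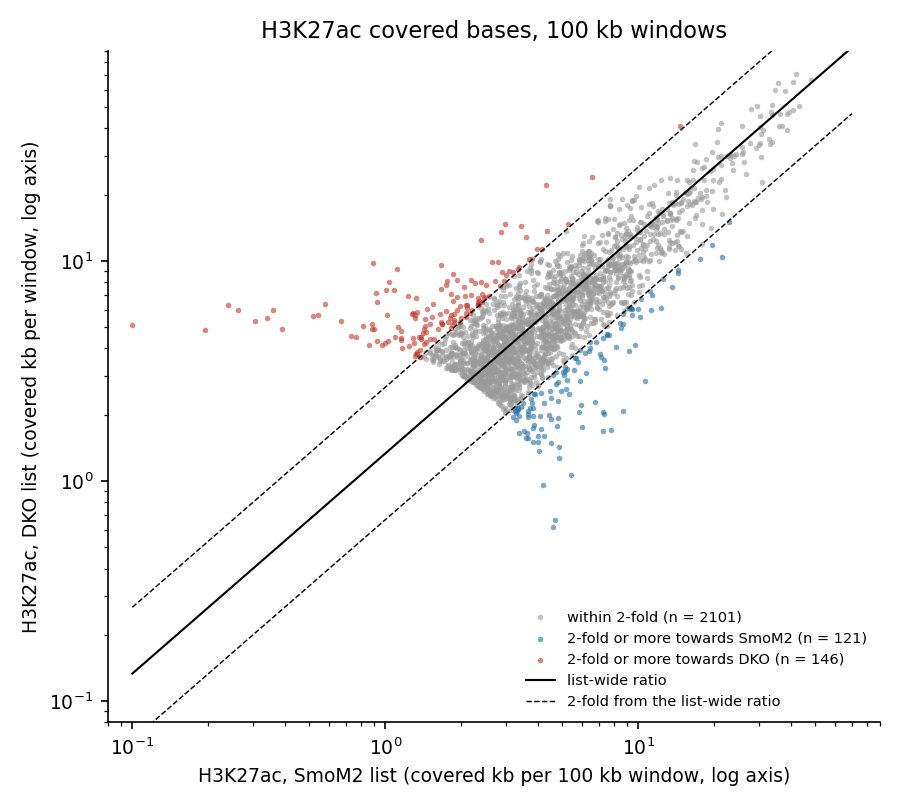
H3K27ac covered kb per 100 kb window in the SmoM2 list (horizontal log axis) against the DKO list (vertical log axis) for the 2368 windows with at least 5 kb, with 1 window listed at 0 kb in SmoM2 drawn at 0.1 kb. The solid line is the list-wide ratio of 1.33 and the dashed lines lie 2-fold from it, with 146 windows above the upper line (red) and 121 below the lower line (blue).

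Few departing windows lacked the mark in one genotype. Median coverage in windows towards DKO was 1.66 kb in SmoM2 but 5.95 kb in DKO tumours, and in windows towards SmoM2 it was 5.21 kb and 2.56 kb. In 25 windows towards DKO the SmoM2 list covered less than 1 kb, and in 1 of them, on chromosome 14 at 78200001–78300000, it covered 0 kb, against 5.12 kb in 7 DKO regions. No window towards SmoM2 was listed at 0 kb in DKO tumours, and 3 had less than 1 kb there. The DKO regions covered 0.620 kb on chromosome 17 at 9900001–10000000, where SmoM2 regions covered 4.59 kb. They covered 0.666 kb on chromosome 4 at 107400001–107500000, against 4.70 kb, and 0.954 kb on chromosome 7 at 25700001–25800000, where the scaled ratio was 0.170. All 4 positions were picked out after their values were seen. In windows towards DKO, 35.2% of DKO bases lay in regions with no SmoM2 counterpart, compared with 13.4% over all 2368 windows. In windows towards SmoM2, 18.3% of SmoM2 bases lay in regions with no DKO counterpart, compared with 5.75% over all. These shares use the bases that chose the windows, so a higher share is partly built in and adds no support.

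The largest departure towards DKO had strongly called regions near both ends and weaker ones between. It lay on chromosome 8 at 24500001–24600000. There SmoM2 regions covered 14.5 kb and DKO regions 40.9 kb, or 30.7 kb after scaling, a scaled ratio of 2.11. The acetylated stretch ran from 24520166 to 24603701. Towards its right end the SmoM2 list had 1 region of 10.2 kb and the DKO list 1 of 13.8 kb. At its left end a DKO region of 6.87 kb, with a −log10 q of 18.6, stood where the SmoM2 list had 3 short regions. Between them the DKO list had a region of 12.8 kb at 24535873–24548721, while the SmoM2 list had 2 of 0.147 and 0.458 kb. The rest of the interval held short DKO regions on both sides of the region of 12.8 kb. Those to its left were of at most 1.56 kb, and the 7 to its right of at most 2.28 kb. The −log10 q and fold enrichment are the authors' values for each region and depend on depth, so they are read only within a list.

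H3K36me3, which marks the bodies of transcribed genes, covered 21.6 kb of the same window in SmoM2 and 35.6 kb in DKO tumours. Scaled by the H3K36me3 totals of each list, that is a ratio of 1.38. A DKO H3K36me3 region of 22.9 kb at 24523553–24546415 began within the acetylated left end and ran through the stretch that was acetylated in DKO tumours. Both DKO Gli2 peaks of the window, at 24587924–24588103 and 24588765–24588908, lay in the right-hand region that was acetylated in both genotypes. No SmoM2 Gli2 peak was called there. The Gli2 lists held 1397 DKO but only 136 SmoM2 peaks on these chromosomes, so a DKO peak without a SmoM2 peak was the usual case. Of the 568 compared windows with a DKO Gli2 peak, 503 held no SmoM2 Gli2 peak. The chromosome 8 window depended on weak regions. With only regions of −log10 q of at least 5 its scaled ratio was 1.07, and with scaling by chromosome it was 1.99.

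**Figure D2:**
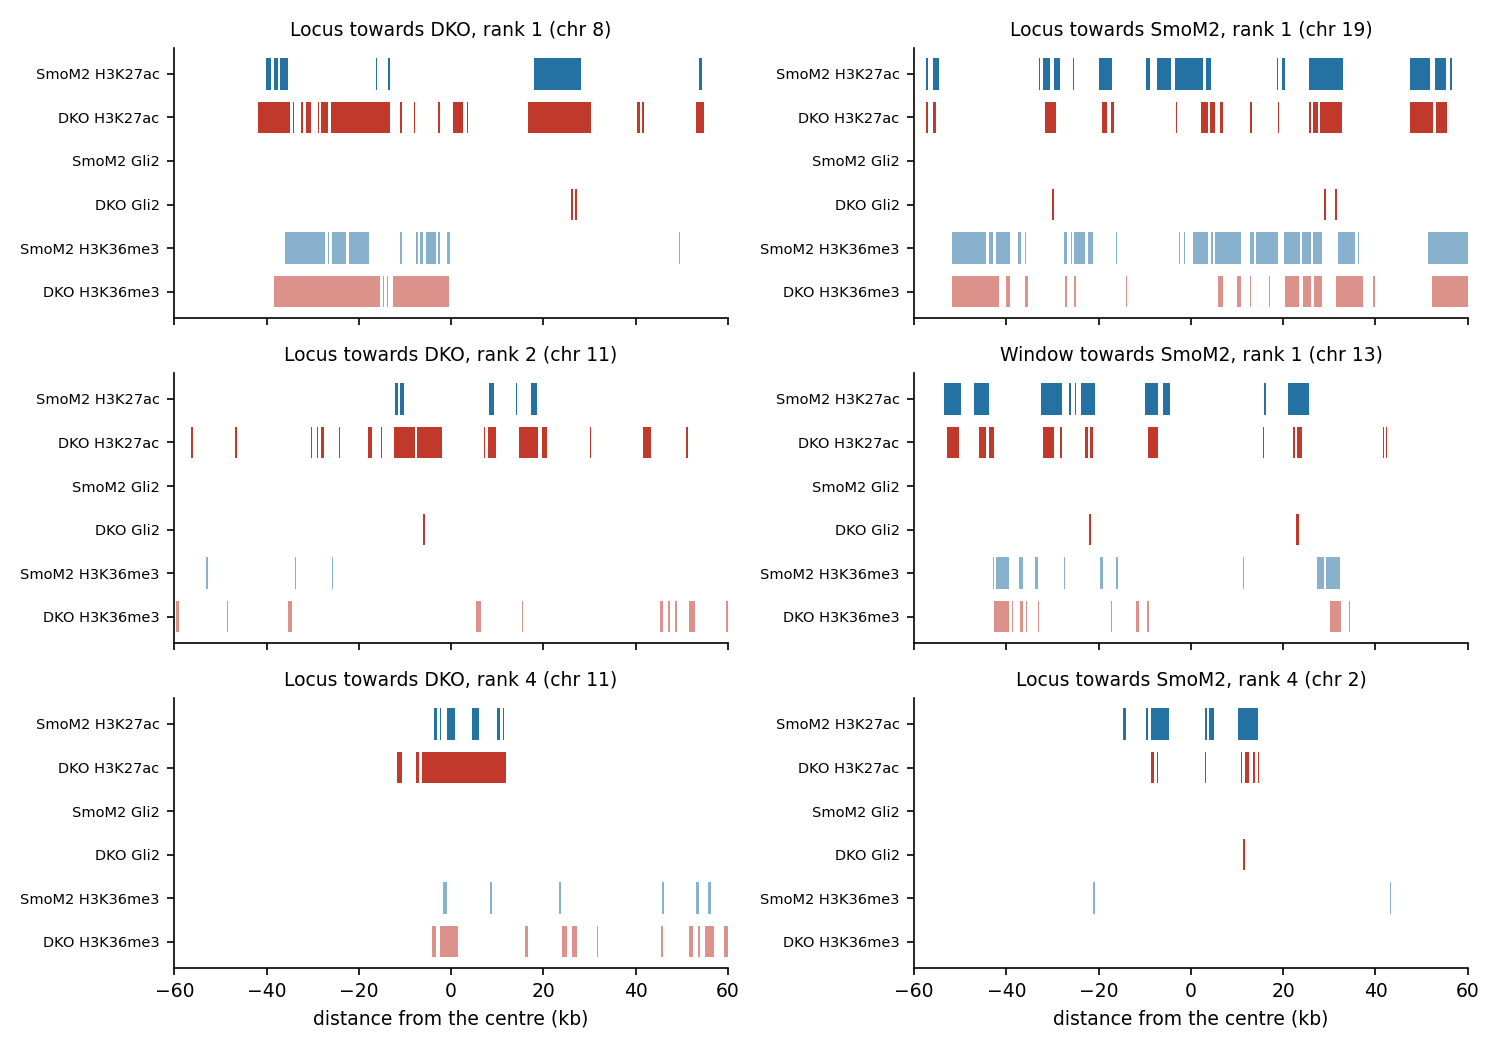
Called regions within 60 kb of the centre of 6 loci (horizontal axis, kb from the centre), with SmoM2 lists in blue and DKO lists in red and 1 line each for H3K27ac, Gli2 and H3K36me3, where Gli2 peaks are drawn at least 0.5 kb wide to be visible. The left column shows 3 loci towards DKO, where DKO H3K27ac blocks are longer or more numerous, and the right column 3 stretches towards SmoM2, where DKO tumours have shorter blocks at most of the same places.

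The windows ranked 2 to 4 had many DKO regions over few short SmoM2 ones. On chromosome 11 at 44600001–44700000, 6 SmoM2 regions covered 4.31 kb and 17 DKO regions 22.1 kb (scaled ratio 3.85). A DKO Gli2 peak at 44631485–44631714 lay in a DKO region of 5.29 kb and in no SmoM2 region. The nearest SmoM2 region, of 0.174 kb, began at 44632356. H3K36me3 was sparse, with 0.637 kb in SmoM2 but 7.48 kb in DKO tumours. On chromosome 1 at 59400001–59500000, 8 SmoM2 regions covered 6.57 kb and 14 DKO regions 24.1 kb (scaled ratio 2.75), with no H3K36me3 region in either genotype. On chromosome 3 at 8700001–8800000, 4 SmoM2 regions covered 2.97 kb and 13 DKO regions 14.7 kb (scaled ratio 3.72). The DKO Gli2 peak there, at 8731357–8731784, had a fold enrichment of 19.1, ranked 132 of 1397 in its list, and lay within a DKO region. SmoM2 regions of 1.21 and 0.428 kb lay to its left and right and left its own position uncovered.

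On chromosome 11 at 21885476–21909122 the difference came from 1 long region. A DKO region of 18.2 kb at 21890893–21909122, with a −log10 q of 15.3, stood against SmoM2 regions that together covered 4.93 kb of the locus. The locus covered 19.8 kb in DKO tumours and its scaled ratio was 3.00. It crosses a window border and so appears in both the window at 21800001–21900000 (2.87 kb in SmoM2 against 13.5 kb in DKO tumours) and the one at 21900001–22000000 (2.39 and 12.4 kb). H3K36me3 in the second of these covered 6.11 kb in SmoM2 but 14.7 kb in DKO tumours, a scaled ratio of 2.03. A similar case lay on the same chromosome at 33093259–33111949, where DKO coverage was 13.5 kb, of which 11.9 kb in 1 region, and SmoM2 coverage was 3.21 kb in 5 regions (scaled ratio 3.15).

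Of the other windows towards DKO with the largest differences, chromosome 11 at 72300001–72400000 had the highest scaled ratio, 8.21, with 0.892 kb in SmoM2 but 9.76 kb in DKO tumours and no H3K36me3 in either. Chromosome 7 at 133000001–133100000 had 3.45 and 14.5 kb within a long H3K36me3 stretch (42.7 kb in SmoM2 but 61.2 kb in DKO tumours). Chromosome 12 at 81200001–81300000 had 3.61 and 12.8 kb, with H3K36me3 also higher in DKO tumours (10.2 and 20.3 kb, scaled ratio 1.68). Chromosome 18 at 60900001–61000000 had 4.35 and 13.6 kb, with H3K36me3 close to its list-wide ratio (scaled ratio 0.917). Among loci not tied to windows, chromosome 4 at 119925435–119973852 held the most Gli2 peaks of the 10 largest towards DKO. Coverage there was 5.41 kb in SmoM2 but 15.8 kb in DKO tumours, with 5 DKO Gli2 peaks and 1 SmoM2 Gli2 peak. The DKO peak at 119940979–119941544, ranked 8 of 1397, overlapped the SmoM2 Gli2 peak and lay in H3K27ac of both genotypes.

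In the largest departures towards SmoM2, DKO tumours had acetylation at many of the same places, in shorter regions. The largest scaled difference in this direction was on chromosome 13 at 54400001–54500000, with 21.4 kb in SmoM2 but 10.4 kb in DKO tumours (7.81 kb after scaling, scaled ratio 0.364). A SmoM2 region of 4.62 kb at 54417462–54422084 stood against DKO regions of 2.37 and 0.333 kb, and 1 of 2.80 kb at 54440054–54442857 against 1 of 2.27 kb. The SmoM2 region of 4.68 kb at 54470984–54475663, with a −log10 q of 11.0, met 2 DKO regions of 0.494 and 1.13 kb. Of the 2 DKO Gli2 peaks in the window, the one at 54427847–54428031 lay within a SmoM2 region of 3.02 kb. DKO regions of 0.563 and 0.619 kb lay to its left and right and left its own position uncovered. The peak at 54472847–54472996 lay within the SmoM2 region of 4.68 kb and at the edge of a DKO region. H3K36me3 covered 10.6 kb in SmoM2 but 8.67 kb in DKO tumours (scaled ratio 0.692).

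Taken as a locus instead of a window, the largest departure towards SmoM2 was on chromosome 19 at 46494249–46560284. SmoM2 regions covered 26.0 kb and DKO regions 14.3 kb, a scaled ratio of 0.412. Both ends were acetylated in each genotype, with a SmoM2 region of 7.51 kb and DKO regions of 0.496, 1.04 and 4.70 kb at the right end. The middle differed more, since SmoM2 regions of 3.04 kb and 6.10 kb filled most of 46519922–46529899, where the DKO list had only a region of 0.339 kb and the start of another of 1.48 kb. H3K36me3 was also shorter in DKO tumours in the same locus, with 28.2 kb in SmoM2 but 11.6 kb in DKO tumours (scaled ratio 0.345). DKO tumours had 3 of their 1397 Gli2 peaks in the locus, each within a DKO acetylated region, and SmoM2 tumours had none of their 136. The peak at 46497162–46497350 lay in no SmoM2 region, but between 2 of them, of 1.68 kb ending at 46496759 and 1.43 kb starting at 46497464. Sufu, deleted in DKO tumours, is a gene of mouse chromosome 19, and whether this locus holds it was not analysed here. At a deleted gene, fewer called regions through loss of DNA and through less of the mark cannot be told apart.

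On chromosome 2 at 33900001–34000000 the acetylated length was lower in DKO tumours at a strong DKO Gli2 site. SmoM2 regions covered 10.7 kb and DKO regions 2.85 kb (scaled ratio 0.200). The DKO Gli2 peak at 33960699–33960908 had a fold enrichment of 36.1 and ranked 18 of 1397. It lay within a SmoM2 region of 4.30 kb at 33959610–33963910, whereas DKO regions of 0.337 and 0.790 kb lay to its left and right and left its own position uncovered. No SmoM2 Gli2 peak was called there, and H3K36me3 in the window was 0.681 kb in SmoM2 and listed at 0 kb in DKO tumours.

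In some windows both marks departed towards SmoM2. On chromosome 11 at 55100001–55200000, H3K27ac covered 8.69 kb in SmoM2 but 2.08 kb in DKO tumours (scaled ratio 0.180), and H3K36me3 covered 9.22 and 1.85 kb (scaled ratio 0.169). On chromosome 7 at 139400001–139500000, H3K27ac covered 14.4 and 9.09 kb (0.475), and the scaled ratio of H3K36me3 was 0.222. Chromosome 11 at 118700001–118800000 had 22.8 kb of H3K27ac in SmoM2 tumours and 11.3 kb after scaling in DKO tumours (0.495), and 19.5 and 10.8 kb of H3K36me3 (0.468). Others departed in H3K27ac alone. On chromosome 18 at 80400001–80500000, H3K27ac covered 12.3 and 6.13 kb (0.374) while H3K36me3 covered 45.1 and 45.2 kb (0.842), and on chromosome 2 at 155600001–155700000 the values were 17.5 and 10.2 kb (0.437) and 28.7 and 31.9 kb (0.934). Chromosome 12 at 88300001–88400000 had 13.6 and 7.63 kb of H3K27ac (0.421) but more H3K36me3 in DKO tumours (3.95 and 7.35 kb, 1.57).

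The locus with the lowest scaled ratio among the 10 largest towards SmoM2 carried a Gli2 peak in SmoM2 tumours only. It lay on chromosome 6 at 51540994–51563076, with 6.60 kb in SmoM2 but 1.21 kb in DKO tumours (scaled ratio 0.137). The Gli2 peak at 51542366–51542505, ranked 5 of 136 in the SmoM2 list, sat in a SmoM2 region of 2.87 kb with a −log10 q of 14.6 and also overlapped DKO acetylation.

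**Figure D3:**
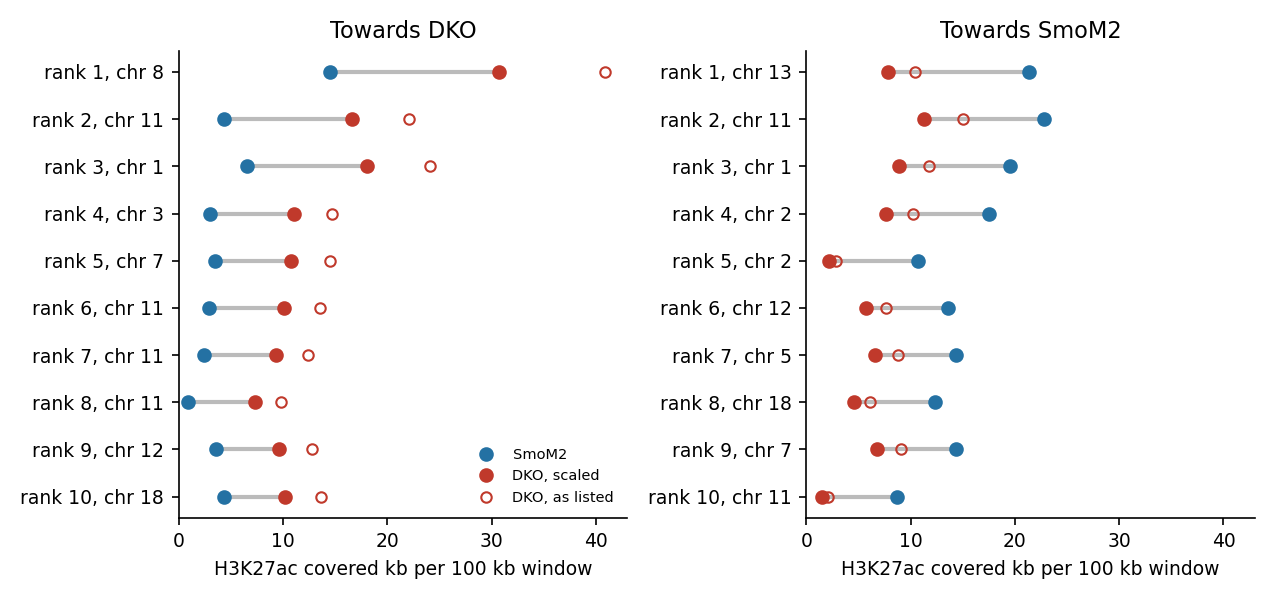
H3K27ac covered kb (horizontal axis) in the 10 windows with the largest scaled difference towards DKO (left) and towards SmoM2 (right), with SmoM2 in filled blue, DKO after scaling in filled red and DKO as listed in open red circles. On the left SmoM2 coverage ranges from 0.892 to 14.5 kb and scaled DKO coverage from 7.32 to 30.7 kb, and on the right SmoM2 coverage ranges from 8.69 to 22.8 kb and scaled DKO coverage from 1.56 to 11.3 kb.

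At the main settings loci leaned slightly towards SmoM2, where windows leaned towards DKO, but neither lean held under all settings. When regions of both lists were joined at gaps of at most 10 kb, 1813 loci held at least 5 kb, with a median span of 13.6 kb. Of these, 99 (5.46%) departed at least 2-fold towards DKO and 111 (6.12%) towards SmoM2. With gaps of at most 20 kb, 111 of 1907 loci departed towards DKO and 108 towards SmoM2. With lists scaled by their numbers of regions, 133 of 2368 windows departed towards DKO and 134 towards SmoM2. Of the 10 largest loci in each direction, 8 towards DKO and 6 towards SmoM2 touched a window named above as among the 10 largest.

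H3K36me3 played no part in choosing the windows. Where at least 5 kb of it was listed, it was relatively longer in DKO tumours in most windows towards DKO. It was relatively shorter there in most such windows towards SmoM2. At least 5 kb of H3K36me3 in both lists together was found in 98 of the 146 windows towards DKO and 72 of the 121 towards SmoM2. The other departing windows were left out. The median scaled H3K36me3 ratio was 1.10 in the 98 windows towards DKO, 0.851 in the 72 towards SmoM2 and 0.970 over all 1738 with at least 5 kb. It was above 1 in 66.3%, 22.2% and 42.8% of them. A scaled H3K36me3 ratio of at least 2 was found in 19 of the 98 windows towards DKO (19.4%) and 1 of the 72 towards SmoM2 (1.39%), compared with 95 of 1738 (5.47%). A ratio of at most 0.5 was found in 2 (2.04%) and 10 (13.9%), compared with 27 (1.55%). For all H3K36me3 windows of the genome with at least 5 kb, 5.11% of 6964 departed 2-fold towards DKO and 1.77% towards SmoM2. Across the 1738 windows the log2 scaled ratios of both marks had a Pearson r of 0.307. This is a description, since windows are not independent replicates and both marks were profiled in tumours of the same 2 genotypes.

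The 3 windows in which the marks departed 2-fold in opposite directions were picked out after their values were seen. On chromosome 1 at 83300001–83400000 the scaled ratio was 2.60 for H3K27ac and 0.414 for H3K36me3. On chromosome 14 at 71300001–71400000 these values were 2.33 and 0.379, and on chromosome 1 at 133400001–133500000 they were 0.457 and 2.61.

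**Figure D4:**
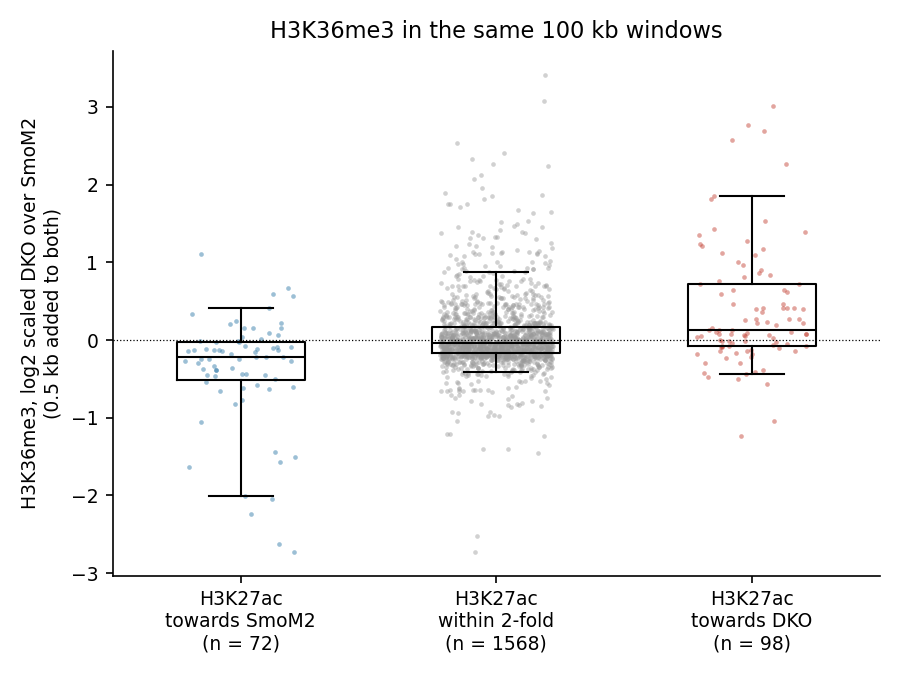
Log2 scaled H3K36me3 ratio, DKO over SmoM2, with 0.5 kb added to both (vertical axis), in windows with at least 5 kb of H3K36me3 that departed towards SmoM2 in H3K27ac (n = 72), stayed within 2-fold (n = 1568) or departed towards DKO (n = 98). Points are windows, boxes the quartiles with the median and whiskers the 5th and 95th percentiles, and the median lies below 0 in the SmoM2 class and above 0 in the DKO class.

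Gli2 peaks of DKO tumours lay in overlapping shares of departing and other windows, but in a larger share of loci towards DKO than of all loci. At least 1 DKO Gli2 peak lay in 40 of 146 windows towards DKO (27.4%, Wilson interval 20.8–35.1%), in 30 of 121 towards SmoM2 (24.8%, 18.0–33.2%) and in 498 of 2101 within 2-fold (23.7%, 21.9–25.6%). Among loci the shares were 36 of 99 towards DKO (36.4%, Wilson interval 27.6–46.2%), 22 of 111 towards SmoM2 (19.8%, 13.5–28.2%) and 418 of all 1813 (23.1%, 21.2–25.1%). These intervals cover counting error only, loci are not replicates, and the 99 loci are part of the 1813. The difference was not tested. Loci towards DKO had a longer median span (16.8 kb) than loci towards SmoM2 (13.2 kb) and all 1813 loci (13.6 kb). Shares among loci of equal span were not compared. Windows with a DKO but no SmoM2 Gli2 peak had a median scaled ratio of 0.972 (n = 503, quartiles 0.741 and 1.32). Windows with neither had 0.946 (n = 1795, quartiles 0.750 and 1.23).

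Windows with a SmoM2 Gli2 peak were few. The median scaled ratio of these 70 windows was 0.877, with quartiles of 0.702 and 1.02. None of the 146 windows towards DKO held a SmoM2 Gli2 peak, which allows a share of up to 2.05%, and 5 of 121 towards SmoM2 did (4.13%, 1.78–9.31%), compared with 70 of 2368 in all (2.96%, 2.35–3.72%). The last 2 intervals overlap, and so does the Wilson interval for 0 of 146, which reaches 2.56%. Singled out after their values were seen, the 5 were chromosome 6 at 51500001–51600000 (scaled ratio 0.163), chromosome 7 at 144900001–145000000 (0.337), chromosome 5 at 141000001–141100000 (0.372), chromosome 18 at 80500001–80600000 (0.432) and chromosome 7 at 28900001–29000000 (0.435). Each also held 1 or 2 DKO Gli2 peaks.

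Departures were rarest where acetylation was densest towards DKO, and second rarest there towards SmoM2. With windows divided into 10 equal parts by mean coverage, 13.1% of the lowest part departed towards DKO and 1.27% of the highest (9.68 to 48.9 kb). Towards SmoM2 the share was 1.27% in the lowest part, 8.44% in the next and 2.53% in the highest. The lowest part was affected by the minimum of 5 kb, which counts unscaled bases and so admits windows rich in DKO bases more readily. With the minimum set on scaled bases, an alternative added after seeing the data, the counts were 130 towards DKO and 131 towards SmoM2. The middle 50% of log2 scaled ratios spanned 0.89 in the lowest part and 0.42 in the highest.

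**Figure D5:**
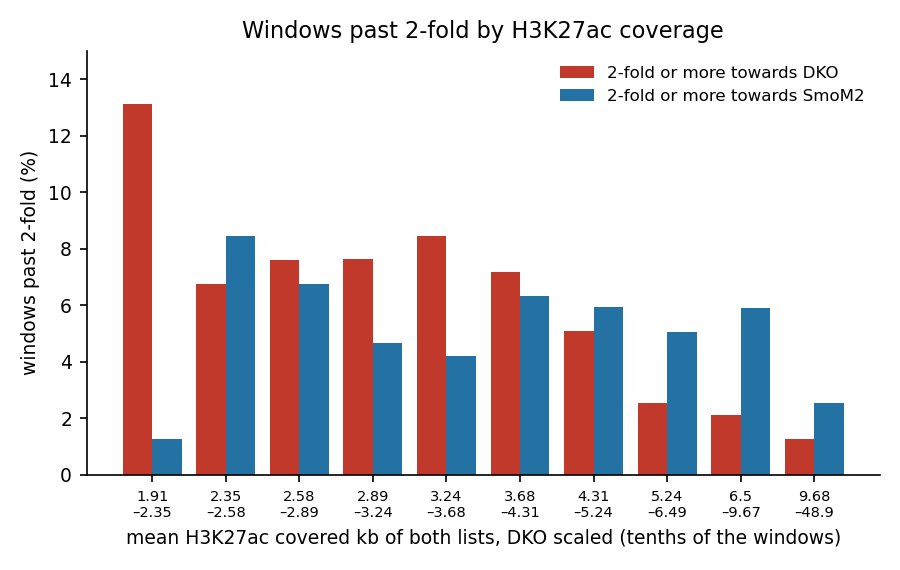
Share of 100 kb windows (vertical axis, %) that departed at least 2-fold towards DKO (red) or SmoM2 (blue), by 10 equal parts of the mean H3K27ac coverage of both lists in kb, DKO scaled (horizontal axis). The DKO share falls from 13.1% in the sparsest part to 1.27% in the densest, where the SmoM2 share is 2.53%.

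No chromosome stood far from the list-wide ratio. Scaled ratios of whole chromosomes ran from 0.919 on chromosome 19 to 1.06 on chromosome 8, and those of H3K36me3 from 0.969 on chromosome 19 to 1.04 on chromosomes 3 and 14. Chromosome 19 held none of the windows towards DKO (0 of 65, which allows up to 4.62%) and 2 towards SmoM2, and chromosome 11 held the largest number towards DKO, 19 of 221 windows. Most departing windows did not sit beside another of their kind, which 18 of the 146 towards DKO and 13 of the 121 towards SmoM2 did. Of the tested neighbours of windows towards DKO, 20 of 100 (20.0%) also departed towards DKO and 1 towards SmoM2. Of those of windows towards SmoM2, 14 of 76 (18.4%) did so towards SmoM2 and 1 towards DKO. Over all 2368 windows, 6.17% departed towards DKO and 5.11% towards SmoM2. Regions and loci that cross a border add their bases on each side to the window of that side, so neighbouring windows are not independent. The only opposite pair, noticed after the values were seen, was on chromosome 6, with a scaled ratio of 2.09 at 90600001–90700000 and 0.328 at 90700001–90800000.

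Departing windows held weaker regions than windows in general, in each list read on its own. In the SmoM2 list the median of a window's highest −log10 q was 3.28 in windows towards DKO, 4.88 in windows towards SmoM2 and 5.93 over all. In the DKO list these medians were 6.94, 5.44 and 8.60. The windows were chosen for short coverage in 1 of the lists, so a low value in that list is partly built in. Few departing windows could be followed in strongly called regions, which are part of the bases that chose the windows, so the counts describe the windows and add no support. When only regions with a −log10 q of at least 5 were kept, 24 of the 146 windows towards DKO still held 5 kb, of which 23 had a scaled ratio above 1 and 20 of at least 2. Of the 121 windows towards SmoM2, 26 still held 5 kb, all with a scaled ratio below 1 and 23 of at most 0.5. The list-wide ratio used for scaling was then 1.69. Among the windows named above, the restriction to −log10 q of at least 3 moved the scaled ratio on chromosome 11 at 44600001–44700000 to 71.6, on chromosome 1 at 59400001–59500000 to 11.0 and on chromosome 2 at 33900001–34000000 to 0.0284. The restriction to at least 5 moved it to 11.7 on chromosome 18 at 60900001–61000000 and to 0.0491 on chromosome 2 at 155600001–155700000. These values rest on few bases in one of the lists.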

How the data were processed

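The authors' deposited lists were read as they stand. The tools Trimmomatic 0.36, BWA, MACS2 and bedtools and the build mm9 come from the submitters' processing notes. The sources used here give neither their roles and settings nor whether reads were pooled or input served as control. Other deposited columns hold the start and end of each region. Fold enrichment was deposited as a ratio, and q-values as −log10 q. The score column, as deposited, repeats −log10 q in whole numbers after multiplication by 10. The lowest −log10 q was 1.02 in the SmoM2 and 1.05 in the DKO H3K27ac list. Chromosomes X and Y were not used.

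Covered bases were summed in 100 kb windows from the first base of each chromosome, and in loci joined at gaps of at most 10 kb. Windows and loci with at least 5 kb in both lists together were compared by the scaled ratio, with a threshold of 2-fold and no test. A Gli2 peak was assigned to the window that held its midpoint. Positions stand in for genes: the 10 windows and 10 loci past 2-fold with the largest scaled difference in each direction. Windows, loci and rules were chosen with earlier results of these data known. On simulated data, 50 of 50 windows planted 3 times higher and 50 of 50 planted 3 times lower were recovered, with 0 of 2305 others. These counts check the calculation only. They give no rate of false or missed calls for the real lists, whose spread between replicates is unknown. Python 3.11.15, numpy 2.4.6, pandas 2.3.3 and matplotlib 3.10.9 were used.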

Additional observations from a re-analysis of the deposited data

How the results depend on the processing

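Each alternative changed 1 choice. The list-wide ratio of covered bases lay between 1.20 and 1.69. Some alternatives were other window sizes, a shifted grid, stricter regions, equal numbers of regions in both lists, other scales and joining at 1 kb. With these, windows departing 2-fold numbered 127 to 198 towards DKO and 118 to 154 towards SmoM2. At −log10 q of at least 5 they were 127 and 119 of only 969 windows (13.1% and 12.3%), of which 20 and 23 also departed that way with all regions. They numbered 337 and 46 with no scaling, 615 and 409 with a minimum of 2 kb, which admits 5392 windows, and 34 and 41 with a minimum of 10 kb, which admits 951. The share of SmoM2 bases also covered in DKO tumours rose from 75.8% to 83.2% and 86.4% when regions were limited to −log10 q from 3 and from 5 upward. Loci departing 2-fold numbered 81 to 111 towards DKO and 101 to 108 towards SmoM2 under other gaps. Under all alternatives that gave a value, the scaled ratios of the named windows, which were chosen for these values, ranged from 1.07 to 71.6 towards DKO and from 0 to 0.660 towards SmoM2. No paired analysis was possible because a genotype's 2 libraries share 1 list, and no replicate could be left out for the same reason. Read numbers are not stated, so the lack of a called region is no evidence that acetylation is absent.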
